A study of Mus musculus with 12 samples.

Results

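The 10 genes described here encode the mouse TGF-β ligands (Tgfb1, Tgfb2 and Tgfb3), their receptors (Tgfbr1, Tgfbr2 and Tgfbr3) and the latent TGF-β binding proteins, or LTBPs (Ltbp1, Ltbp2, Ltbp3 and Ltbp4). They were picked out by symbol from a table of 55092 features of mouse abdominal aorta, and the set was chosen with earlier results of these data known. All 10 passed the filter on low values that left 14676 features for testing. TGF-β is secreted in a latent complex with its own propeptide, and LTBPs fasten that complex to the microfibrils of the extracellular matrix, from which integrins and proteases release the active ligand. Active ligand binds TGFBR2, which recruits and phosphorylates TGFBR1, and TGFBR1 passes the signal to SMAD2 and SMAD3, while the co-receptor TGFBR3 (betaglycan) presents ligand and TGFB2 in particular. In the aorta this pathway shapes the contractile state of smooth muscle cells (SMCs) and the elastic matrix, and inherited defects of several of its members cause aortic aneurysm.

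RNA-Seq was performed on abdominal aortas of male mice, 3 per group and 1 library per mouse. CCN2fl/fl mice carry floxed alleles of Ccn2, which encodes a matricellular protein that TGF-β induces, and CCN2SMCΔ mice also carry Myh11-Cre-ERT2, a tamoxifen-activated recombinase driven in SMCs. Every mouse, Cre-negative controls included, received 5 tamoxifen doses from 8 weeks of age, then 2 weeks without treatment. Minipumps then delivered saline or angiotensin II (Ang II, 500 ng/kg/min) for 7 days, which gave the groups CFS (CCN2fl/fl, saline), CSS (CCN2SMCΔ, saline), CFA (CCN2fl/fl, Ang II) and CSA (CCN2SMCΔ, Ang II). The controls lacked the Cre transgene, so the deletion and the transgene cannot be told apart, and deletion was confined by design to cells that express Myh11. The study took the RNA from infrarenal tissue, and reports infrarenal aneurysm in nearly all CCN2SMCΔ mice after 7 days of Ang II. Only a few CCN2fl/fl mice had aneurysms, which were mild and lay higher up the aorta. Whether each sequenced mouse had one is not given. In CSA against CFA, genotype and aneurysm therefore cannot be told apart. Values are FPKM, in which fragment numbers are put per exon length and per library size, so that levels can be compared between genes.

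Depth recovered from the values ran from 14555508 to 23102751 fragments per library, lowest in CSA03. That library also stood apart from its replicates, at root mean square distances of 1.21 and 1.20 on the log2 scale from CSA01 and CSA02, against 0.505 to 0.743 for the other pairs of replicates. The targeted gene, Ccn2, was at 709.5, 1108 and 480.1 FPKM in CFS, 436, 639.9 and 587 in CSS, 1013, 1105 and 564 in CFA, and 255, 331 and 399 in CSA. Its CSA levels all lay below CFA and CFS, whereas CSS and CFS overlapped, in tissue where only SMCs were targeted. The sources used here do not give the exons that the floxed allele removes, so these levels may include fragments of a shortened transcript and are no check of deletion. In addition, 23.2% of the exonic bases of Ccn2 lie under the antisense gene Gm15270, from which these libraries without strand cannot tell it apart. The label of aorta was checked with 8 SMC markers (Myh11, Acta2 and others), whose summed level was 8202 to 10305 FPKM in CFS, 7706 to 8740.4 in CSS, 5532 to 8420.0 in CFA and 799.8 to 959 in CSA. By contrast, 8 macrophage markers summed to 211 to 253 FPKM in CFS, 228 to 279 in CSS, 292 to 594 in CFA and 1837 to 1936 in CSA, and 6 neutrophil markers to 3.71 to 15.2, 4.33 to 5.59, 11.01 to 27.9 and 508 to 556. The 6 fibroblast markers summed to 807 to 952, 667 to 747, 859 to 953 and 994 to 1500 (1499.8 in CSA03). Of these 6, only Lum rose between CFA and CSA (log2 fold change 1.44), while Scara5 (-2.20), Pi16 (-1.17) and Dpt (-1.13) fell and Dcn and Pdgfra did not pass limma's test at an adjusted p under 0.05, with a median of -0.37 over the list. The 5 platelet markers summed to 24.2 to 44.2, 31.7 to 34.2, 35.7 to 49.3 and 24.0 to 54.4, so the groups overlapped, and 4 of the 5 did not pass between CSA and CFA. None of the markers in these lists was at 0 in all libraries. Among the other marker lists, the summed FPKM of CSA was above that of CFA without overlap for T cells (22.6 to 33.2 against 0.559 to 2.15), B cells (43.0 to 59.8 against 14.7 to 20.6) and Schwann cells (13.8 to 18.1 against 4.23 to 7.47). It was below CFA without overlap for endothelium (110 to 139 against 215 to 424), adipocytes (92.0 to 296 against 298 to 854) and erythrocytes (63.2 to 621 against 767 to 2496). Not all members of these lists went with the sums. Of 6 endothelial markers 3 passed lower and 3 did not pass, 1 of which was higher in CSA without overlap. Of 4 Schwann cell markers 1 passed higher, and of 5 adipocyte markers 2 passed lower, while the rest did not pass. The part of these differences in cell type markers in the results on the 10 genes was not tested. In bulk tissue, fewer cells of a type and less RNA per cell cannot be told apart.

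In the aorta of CSA mice the make-up of the TGF-β system differed from that of CFA mice. Ltbp4 and Ltbp1 fell to 11.2% and 18.6% of their CFA means, Ltbp2 rose to 338%, Tgfb3, Ltbp3, Tgfb2 and Tgfbr3 fell by smaller steps, and Tgfb1 and Tgfbr2 rose. In limma, with Benjamini-Hochberg adjustment over all 14676 features, 9 of the 10 genes had an adjusted p under 0.05 (3 higher and 6 lower), where 40.7% of all tested features did (19.5% higher and 21.2% lower). Of these 9, 3 (Ltbp2, Ltbp1 and Ltbp4) also passed a log2 fold limit of 1.5 and are termed called, against 17.2% of tested features. With only CSA and CFA in the fit the count at an adjusted p under 0.05 was 4 of the 10 (1 higher and 3 lower). No share of all tested features is given for that fit, so this count has no background beside it. The FPKM ranges of CSA and CFA did not overlap for 8 of the 10 genes, against 48.5% of tested features. The median log2 fold change of the 10 genes was -0.80, and that of all tested features was -0.04.

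**Figure D1:**
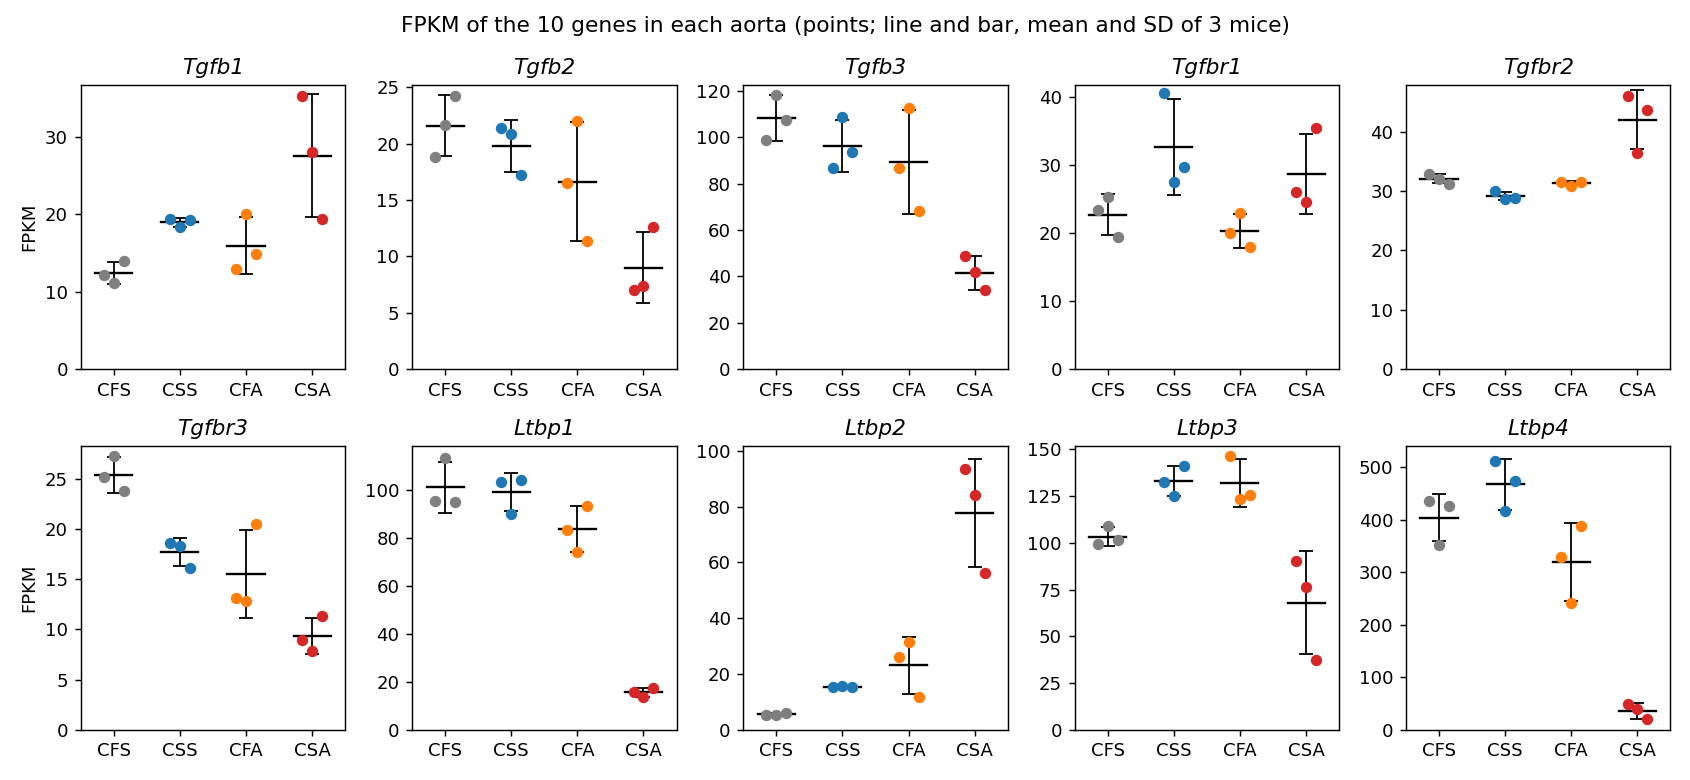
FPKM of the 10 genes on linear axes that start at 0, with 1 point per aorta and a line and bar for the mean and SD of the 3 mice of each group. The CSA points of Ltbp1 (13.8 to 17.2) and Ltbp4 (19.5 to 49.6) lie far below the other groups, and those of Ltbp2 (56.1 to 93.4) far above them.

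The LTBPs held the changes that passed the fold limit. Ltbp1, which binds the latent complex of all 3 ligand isoforms, was at 95.3, 114 and 94.9 FPKM in CFS, 103, 90.0 and 104 in CSS, 83.5, 74.1 and 93.4 in CFA, and 15.8, 13.8 and 17.2 in CSA. Its CSA aortas were far below the other 9, whose ranges lay close together. The log2 fold change of CSA against CFA was -2.42 (SE 0.14, adjusted p = 7.79e-07), a 5.34-fold decrease. Ltbp4, an LTBP with a known part in elastic fibre assembly alongside fibulins, was at 435, 352 and 426 FPKM in CFS, 513, 416 and 474 in CSS, 329, 242 and 388 in CFA, and 49.6, 38.5 and 19.5 in CSA. It was the most abundant of the 10 in the CFS, CSS and CFA groups, and each CSA aorta lay far below the lowest of the other 9 (242). Its log2 fold change was -3.23 (SE 0.30, adjusted p = 1.36e-05), and without CSA03, its lowest library, -2.84.

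Ltbp2, an LTBP that sits on microfibrils but does not bind the latent ligand, ran the other way. It was at 5.21, 5.30 and 5.89 FPKM in CFS, 15.4, 15.7 and 15.3 in CSS, 26.2, 31.4 and 11.6 in CFA, and 93.4, 84.1 and 56.1 in CSA. The CFS aortas were lowest and the CSA aortas highest with no overlap with any other group, and CSS lay within the range of CFA, where CFA74 was low. Between CSA and CFA Ltbp2 rose by a log2 fold change of 1.84 (SE 0.32, adjusted p = 0.000817). Without CFA74 the value was 1.40, under the fold limit, with an adjusted p of 0.000553, and Ltbp2 was not called by limma's treat, which takes the fold limit as the null. Ltbp3, which like LTBP1 carries latent TGF-β, was at 99.3, 109 and 101 FPKM in CFS, 132, 125 and 141 in CSS, 146, 124 and 126 in CFA, and 90.1, 76.4 and 37.2 in CSA. CSA lay below the other groups and its 3 aortas were widely spread, with CSA03 lowest. The log2 fold change was -1.05 (SE 0.26, adjusted p = 0.00832), and -0.66 without CSA03 (adjusted p = 0.000827). When only CSA and CFA entered the fit, its adjusted p was 0.064.

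The promoters of the 3 called LTBPs are shown because these genes moved in opposite directions, and capitals mark matches to CAGAC, the letters that SMAD proteins are known to bind, on either strand (GTCTG on the strand shown). Each run is the 250 bases before the most upstream RefSeq-listed start, read 5′ to 3′ along the gene's strand, from the GRCm38.p6 assembly. Ltbp1 lies at chr17:75005279-75005528 (plus strand), Ltbp2 at chr12:84876492-84876741 (minus strand) and Ltbp4 at chr7:27337613-27337862 (minus strand). By the GENCODE M21 gene positions given further below, the windows of Ltbp2 and Ltbp4 reach into the 5′ ends of these genes.
Ltbp1: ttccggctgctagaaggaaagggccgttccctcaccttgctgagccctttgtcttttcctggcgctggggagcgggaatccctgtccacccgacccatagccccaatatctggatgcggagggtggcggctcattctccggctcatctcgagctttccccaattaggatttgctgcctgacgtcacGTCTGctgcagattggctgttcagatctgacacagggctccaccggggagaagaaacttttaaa
Ltbp2: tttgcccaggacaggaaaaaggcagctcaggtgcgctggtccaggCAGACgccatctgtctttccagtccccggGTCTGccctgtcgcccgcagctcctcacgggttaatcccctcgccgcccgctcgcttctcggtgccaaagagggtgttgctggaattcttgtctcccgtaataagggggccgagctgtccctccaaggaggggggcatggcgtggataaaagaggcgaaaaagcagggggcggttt
Ltbp4: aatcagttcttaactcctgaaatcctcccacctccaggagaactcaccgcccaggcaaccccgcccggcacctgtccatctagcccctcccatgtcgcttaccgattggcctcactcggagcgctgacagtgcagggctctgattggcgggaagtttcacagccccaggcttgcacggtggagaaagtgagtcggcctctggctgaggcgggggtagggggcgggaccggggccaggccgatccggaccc
CAGAC occurred 1 time in the Ltbp1 window, 2 times in the Ltbp2 window and 0 times in that of Ltbp4. The listed starts number 2 for Ltbp1, 1 for Ltbp2 and 3 for Ltbp4, and windows at the further starts were not scanned. FPKM per gene do not tell which start was used. Among 32536 RefSeq promoters of the same length 42.2% held at least 1 match and 11.6% at least 2. RefSeq promoters were matched for 8 of the 10 genes, without Tgfb3 and Tgfbr3, and the other windows held 0 (Tgfb1 and Tgfbr1), 1 (Tgfbr2 and Ltbp3) or 2 (Tgfb2) matches. The CArG box, the motif of serum response factor in SMC genes, was found in 0 of the 8 windows and in 1.48% of all promoters. A match describes the letters of a window and no binding was measured.

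Among the ligands, Tgfb3 was the most abundant transcript in each group and the one with the smallest adjusted p. It was at 98.6, 118 and 107 FPKM in CFS, 86.6, 109 and 93.6 in CSS, 86.6, 113 and 68.3 in CFA, and 48.7, 41.9 and 34.0 in CSA. All CSA aortas were below all others, while the other groups overlapped. Tgfb3 fell between CFA and CSA by 1.09 on the log2 scale (SE 0.20, adjusted p = 0.0011). Tgfb1, the isoform best known in wound repair and immune regulation, was at 12.1, 11.1 and 14.0 FPKM in CFS, 19.4, 18.3 and 19.2 in CSS, 12.97, 20.0 and 14.9 in CFA, and 35.2, 28.1 and 19.4 in CSA. The CSS aortas were all above the CFS aortas, and CSA and CFA overlapped in 1 pair, since CSA03 lay just under CFA72. Tgfb1 rose between CFA and CSA with a log2 fold change of 0.77 (SE 0.22, adjusted p = 0.0151). Tgfb2, an isoform tied to the development of the heart and vessels, was at 18.8, 21.7 and 24.2 FPKM in CFS, 21.4, 20.8 and 17.2 in CSS, 16.5, 22.0 and 11.4 in CFA, and 6.97, 7.36 and 12.6 in CSA. CSA01 and CSA02 were below all other aortas, and CSA03 was above CFA74. Tgfb2 fell by 0.88 on the log2 scale (SE 0.26, adjusted p = 0.0206).

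Tgfb1 and Tgfb2 did not reach the fold limit, and some alternatives put their adjusted p above 0.05. For Tgfb1 it was above 0.05 without CFA71 (0.0658), CFA74 (0.0503) or CSA01 (0.0519), with no filter (0.0529) and with only CSA and CFA in the fit (0.0852). For Tgfb2 it did so without CFA71 (0.0583), CFA72 (0.0795), CSA01 (0.0685) or CSA02 (0.0665), with no filter (0.067) and with only the groups compared (0.0929). Tgfb3 kept an adjusted p between 9.25e-05 and 0.0181 over its 14 alternatives.

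The receptors showed smaller differences. Tgfbr2, the type II receptor that binds ligand first, was at 32.8, 32.1 and 31.3 FPKM in CFS, 29.96, 28.7 and 28.8 in CSS, 31.5, 30.9 and 31.5 in CFA, and 46.0, 36.4 and 43.6 in CSA. The 9 aortas outside CSA lay within a narrow band, and all CSA aortas lay above it. Tgfbr2 rose by a log2 fold change of 0.42 (SE 0.11, adjusted p = 0.0102, or 0.105 with only CSA and CFA in the fit). Tgfbr1, the type I receptor kinase, was at 23.3, 25.3 and 19.4 FPKM in CFS, 40.6, 27.5 and 29.7 in CSS, 19.95, 22.9 and 17.96 in CFA, and 25.96, 24.5 and 35.4 in CSA. Both CCN2SMCΔ groups lay above the CCN2fl/fl group given the same infusion, without overlap, and CSA and CSS overlapped. Its log2 fold change between CSA and CFA was 0.48 (95% confidence interval 0.06 to 0.91) with an adjusted p of 0.0666, and 0.56 with an adjusted p of 0.0295 when FPKM were scaled to each library's sum. Tgfbr3, the betaglycan co-receptor, was at 25.2, 27.3 and 23.8 FPKM in CFS, 18.6, 18.4 and 16.1 in CSS, 13.2, 12.8 and 20.5 in CFA, and 8.92, 7.83 and 11.3 in CSA. CFS was highest and CSA lowest with no overlap with the rest, and CSS fell inside the range of CFA. Tgfbr3 fell between CFA and CSA by 0.71 on the log2 scale (SE 0.19, adjusted p = 0.0126, or 0.0801 with only these groups in the fit).

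With saline, the comparison of CSS with CFS asks how the genotypes differed without Ang II. Limma gave 0 of the 10 genes at an adjusted p under 0.05, and 0.0204% of tested features reached it (0.0136% were called), while 924 had an unadjusted p under 0.05. The ranges of CSS and CFS did not overlap for 6 of the 10 genes (4 higher and 2 lower), where 20.4% of tested features did not overlap (11.1% higher and 9.31% lower). The 4 higher were Ltbp2 (log2 fold change 1.49, SE 0.32, adjusted p = 0.255), Tgfb1 (0.61, SE 0.22, adjusted p = 0.62), Tgfbr1 (0.51, SE 0.19, adjusted p = 0.671) and Ltbp3 (0.36, SE 0.26, adjusted p = 0.991). Both lower genes were receptors, Tgfbr3 at -0.52 (SE 0.19, adjusted p = 0.661) and Tgfbr2 at -0.14 (SE 0.11, adjusted p = 1.0). Ltbp4 and Ltbp1, the genes with the steepest falls under Ang II, stood at 0.21 (95% confidence interval -0.45 to 0.87) and -0.03 (-0.33 to 0.28). For Ltbp2 the adjusted p was 0.0125 with array weights, which give less weight to libraries that vary more, and 0.00255 when only CSS and CFS were fitted.

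The comparison of CFA with CFS asks how Ang II and saline differed in mice that keep Ccn2. Again 0 of the 10 genes had an adjusted p under 0.05, with 0.0341% of tested features passing, 0.0273% called and 1383 at an unadjusted p under 0.05. The ranges did not overlap for 4 of the 10, Ltbp2 and Ltbp3 higher and Tgfbr3 and Ltbp1 lower, beside 20.2% of tested features. Ltbp2 had the lowest adjusted p of the 10 (log2 fold change 1.94, SE 0.32, adjusted p = 0.0616), and without CFA74 the values were 2.37 and 0.00181. Tgfbr3 stood at -0.74 (SE 0.19, adjusted p = 0.188), and its adjusted p was 0.0239 without CFA74 and 0.0153 with array weights. Ltbp3 was at 0.35 and Ltbp1 at -0.28, with adjusted p-values of 0.791 and 0.595. CFA74 was the lowest of its group for Ltbp2, Tgfb2, Tgfb3 and Tgfbr1 and the highest for Tgfbr3, Ltbp1 and Ltbp4. CSS with CFS and CFA with CFS share the CFS aortas, so their values for Ltbp2 and Tgfbr3 rest on the same 3 reference mice.

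**Figure D2:**
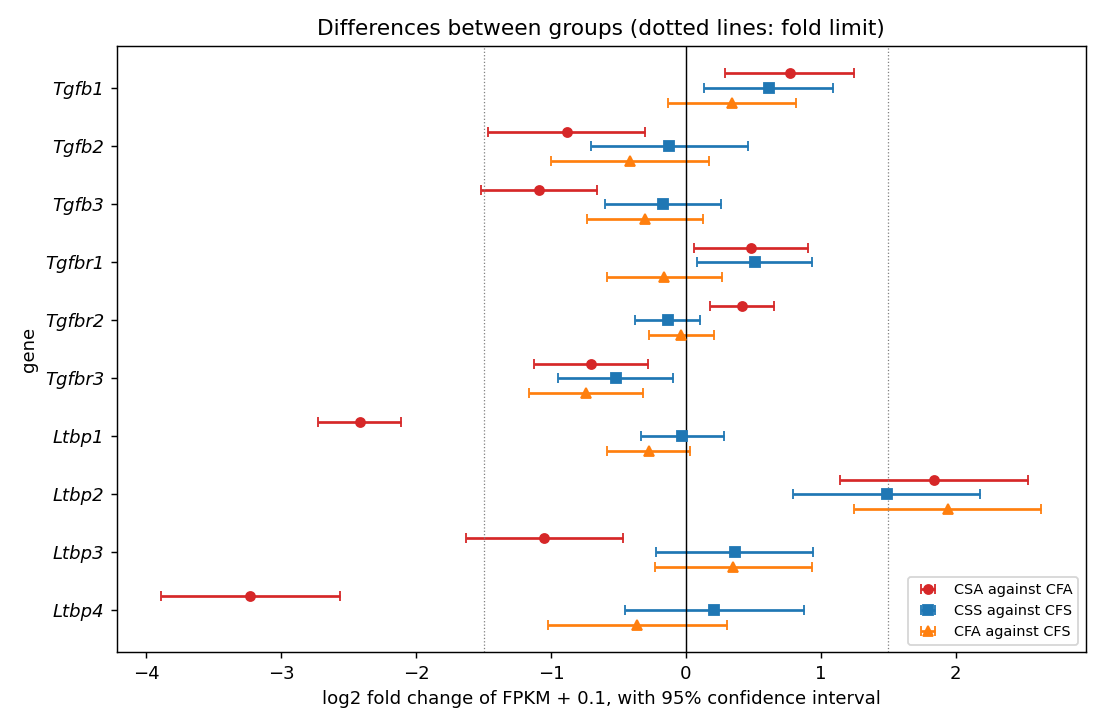
Log2 fold change of FPKM + 0.1 for each of the 10 genes, with 95% confidence intervals from limma, in CSA against CFA (circles), CSS against CFS (squares) and CFA against CFS (triangles), and dotted lines at the fold limit of 1.5. Ltbp1 (-2.42) and Ltbp4 (-3.23) stand apart in CSA against CFA. The intervals, which are not adjusted for the number of features, lie above 0 in all 3 comparisons for Ltbp2 and below 0 in all 3 for Tgfbr3. Neither gene had an adjusted p under 0.05 in CSS against CFS or in CFA against CFS.

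Within CCN2SMCΔ mice, CSA against CSS gave 8 of the 10 genes at an adjusted p under 0.05 (2 higher and 6 lower), where 46.2% of tested features passed, and 9 of the 10 without overlap, against 55.4%. Ltbp4 stood at a log2 fold change of -3.80 (SE 0.30, adjusted p = 3.28e-06), Ltbp1 at -2.67 (SE 0.14, adjusted p = 3.06e-07) and Ltbp2 at 2.29 (SE 0.32, adjusted p = 0.000147), the 3 genes called here (20.3% of features were called). Ltbp3 (-1.06), Tgfb3 (-1.22), Tgfb2 (-1.18) and Tgfbr3 (-0.93) fell and Tgfbr2 (0.52) rose. Without CSA03 the value of Ltbp3 was -0.68. The genes that did not pass were Tgfb1 (0.50, adjusted p = 0.0833) and Tgfbr1 (-0.19, adjusted p = 0.456). Tgfb1 passed without CSA03 (0.73, adjusted p = 0.00556) and with array weights (0.66, adjusted p = 0.00117). With 1 mouse left out its value went as low as 0.30, and over 14 alternatives its adjusted p in limma went up to 0.266. This comparison shares the CSA aortas with CSA against CFA.

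The interaction of genotype and treatment tests whether the genotype difference under Ang II differed from that under saline. It passed for 5 of the 10 genes, with 26.4% of tested features passing. The difference between the genotype effects was -3.44 for Ltbp4 (SE 0.42, adjusted p = 0.000268) and -2.39 for Ltbp1 (SE 0.20, adjusted p = 3.18e-05), both called, as 15.2% of features were. It was -1.41 for Ltbp3 (SE 0.37, adjusted p = 0.0169), -0.92 for Tgfb3 (SE 0.28, adjusted p = 0.031) and 0.55 for Tgfbr2 (SE 0.15, adjusted p = 0.0215). Over 19 alternatives the adjusted p of limma missed 0.05 in 8 for Tgfb3 (no filter on low values, and without CFS68, CFS70, CSS55, CSS56, CFA71, CFA72 or CSA02, up to 0.0819), in 4 for Tgfbr2 (no filter, and without CFS68, CSS55 or CSS56, up to 0.0894) and in 1 for Ltbp3 (no filter, 0.0519). The genes that rose or fell in CSA without a detected interaction were Ltbp2 (0.35, 95% confidence interval -0.63 to 1.34), Tgfb1 (0.15, -0.52 to 0.83), Tgfb2 (-0.76, -1.59 to 0.06) and Tgfbr3 (-0.18, -0.78 to 0.41). For Tgfbr1 it was -0.03 (-0.63 to 0.58). Differences between infusions within these intervals were not resolved at 3 mice per group.

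Because FPKM are per length, the make-up of each family could be read as shares of its summed FPKM. Tgfb1 made up 8.78% ± 1.23 of the ligand sum in CFS, 14.1% ± 1.53 in CSS, 13.3% ± 2.29 in CFA and 34.8% ± 4.85 in CSA (SD, n = 3). Tgfb3 made up 76.1% ± 2.26, 71.2% ± 2.86, 73.2% ± 1.24 and 53.1% ± 1.40 in the same order. The Tgfb1 share of the CSA aortas (29.4% to 38.8%) was above that of every other aorta, and the Tgfb3 share (51.5% to 54.1%) below. The summed ligand FPKM was 142 ± 11.2 in CFS, 135 ± 11.1 in CSS, 122 ± 30.5 in CFA and 78.1 ± 12.4 in CSA, with CSA below every CFA aorta. Tgfb2 kept 12.1% to 15.2% of the sum as a group mean, although CSA03 held 19.1% and CSA01 7.68%.

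Among the LTBPs, Ltbp4 made up 65.7% ± 4.32 of the LTBP sum in CFS, 65.3% ± 1.57 in CSS, 56.8% ± 5.72 in CFA and 17.7% ± 2.48 in CSA (SD, n = 3). Ltbp2 made up 0.891% ± 0.0621, 2.18% ± 0.221, 4.34% ± 2.40 and 40.1% ± 2.84 in the same order. Thus, by group mean, the least abundant LTBP of the CFS aorta was the most abundant of the CSA aorta on the FPKM scale. In CSA the FPKM ranges of Ltbp2 and Ltbp3 overlapped. Their shares were 37.5% and 36.2% in CSA01, 39.5% and 35.9% in CSA02, and 43.1% and 28.6% in CSA03. The Ltbp3 share went from 23.9% ± 3.14 in CFA to 33.6% ± 4.32 in CSA, although its level fell, and Ltbp1 went from 15.03% ± 0.737 to 8.69% ± 3.96, with CSA03 at 13.3%. The summed LTBP FPKM was 614 ± 29.6, 715 ± 61.1, 558 ± 77.8 and 197 ± 60.9 in the 4 groups. For shares whose ranges did not overlap the exact two-sided permutation test gave p = 0.1, the smallest that 3 against 3 mice allow. The Tgfb1 and Ltbp2 shares reached it in each of the 4 pairs of groups compared, and the Tgfb3 share in all but CFA against CFS, where the exact p was 0.2.

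**Figure D3:**
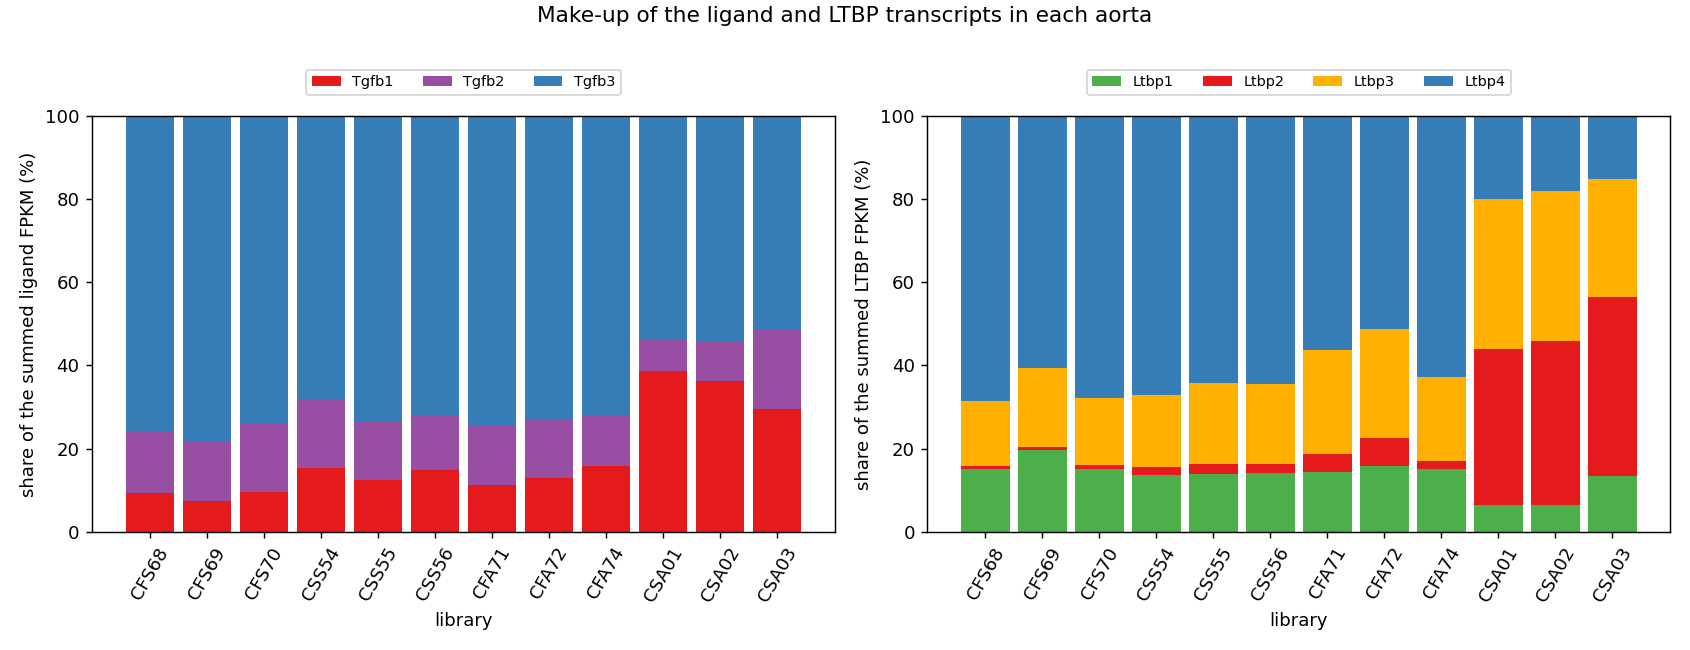
Stacked bars of the share of each ligand in the summed ligand FPKM (left) and of each LTBP in the summed LTBP FPKM (right), in percent, with 1 bar per aorta. In the 3 CSA bars Tgfb1 takes 29.4% to 38.8% of the ligands and Ltbp2 37.5% to 43.1% of the LTBPs, where it takes at most 6.67% in every other bar.

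The order of the 10 genes by mean FPKM differed between the groups. In CFS it ran from Ltbp4 through Tgfb3, Ltbp3 and Ltbp1 to Tgfbr2, then Tgfbr3, Tgfbr1 and Tgfb2, and last Tgfb1 and Ltbp2. Ranges overlapped between neighbours within the run from Tgfb3 to Ltbp1 and within that from Tgfbr3 to Tgfb2, and elsewhere neighbours were separate. In CSS the order ran Ltbp4, Ltbp3, Ltbp1, Tgfb3, Tgfbr1, Tgfbr2, Tgfb2, Tgfb1, Tgfbr3 and Ltbp2, with overlap between Ltbp1 and Tgfb3, between Tgfbr1 and Tgfbr2 and along the run from Tgfb2 to Tgfbr3. In CFA it ran Ltbp4, Ltbp3, Tgfb3, Ltbp1, Tgfbr2, Ltbp2, Tgfbr1, Tgfb2, Tgfb1 and Tgfbr3, and every pair of neighbours from Tgfbr2 onward overlapped, as did Tgfb3 and Ltbp1. In CSA it ran Ltbp2, Ltbp3, Tgfbr2, Tgfb3, Ltbp4, Tgfbr1, Tgfb1, Ltbp1, Tgfbr3 and Tgfb2, with each neighbour overlapping the next down to Tgfb1 and Tgfbr3 overlapping Tgfb2.

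To place the 3 called genes among other transcripts, likeness was measured as the root mean square difference of centred log2(FPKM + 0.1) over the 12 libraries, among 7777 genes with a mean of at least 5 FPKM. This is a description over libraries that share groups and scaling. Closest to Ltbp1 were Fry (0.126) and Cpe (0.131), where the spread of Ltbp1 itself about its mean was 1.134. Closest to Ltbp4 were Bcam (0.25) and Lims2 (0.255), against a spread of 1.58. The genes nearest to Ltbp2 lay further off, Alox5ap at 0.412 and Hmgb2 at 0.413, against a spread of 1.39.

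Other genes of the pathway were counted in 5 lists by role in CSA against CFA, where 40.7% of all tested features had an adjusted p under 0.05 and 17.2% were called. Among 15 genes that act on the latent complex, 13 were tested, and 7 rose, 4 fell and 2 did not pass (median 0.70, 4 called), so that 84.6% of them passed and 30.8% were called. Mmp9, a secreted gelatinase, was at 2.33 to 5.09 FPKM in CFA and 16.9 to 20.8 in CSA (log2 fold change 2.52, SE 0.26, adjusted p = 2.42e-05). Nrros, which anchors latent TGF-β on myeloid cells and microglia, was at 2.49 to 6.59 and 12.03 to 28.3 (2.40, SE 0.38, adjusted p = 0.00046). Itgb3, a chain of an integrin that binds latent TGF-β, fell from 22.4 to 47.8 FPKM in CFA to 7.67 to 12.4 in CSA (-1.90, SE 0.26, adjusted p = 0.000202).

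Of 12 matrix partners of the LTBPs, all tested, 3 rose, 3 fell and 6 did not pass (median 0.10, 3 called). The shares that passed (50%) and were called (25%) count Fbn2, which entered the tests through its CSA level alone. Without Fbn2 both shares would be lower, so nothing is read from them beside the 40.7% and 17.2% of all tested features. Fbn2, a fibrillin best known from development, was at 0 to 0.0225 FPKM in CFA and 2.15 to 4.51 in CSA. It met the filter on low values through the CSA libraries alone. Its place among the genes that rose and were called was therefore set by its CSA level, and its adjusted p is not given. The fitted fold change of Fbn2 depends on the pseudocount and is not given either. Fbln5, the elastic fibre protein that LTBP4 is known to bind, was at 230.3 to 324 FPKM in CFA and 73.3 to 76.6 in CSA (log2 fold change -1.82, SE 0.14, adjusted p = 4.87e-06). Adamtsl2, a microfibril-associated protein that binds LTBP1, went from 6.06 to 9.58 FPKM to 1.28 to 3.02 (-1.89, SE 0.31, adjusted p = 0.000618).

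Of 13 co-receptors and extracellular modulators, 0 rose, 5 fell and 8 did not pass (median -0.31, 2 called, and 1 without CSA03). At 38.5% passed and 15.4% called the list was near all tested features (40.7% and 17.2%). Htra1, a serine protease that cleaves matrix proteins, was at 179 to 308 FPKM in CFA and 52.5 to 71.9 in CSA (log2 fold change -1.91, SE 0.19, adjusted p = 1.96e-05). Vasn, whose product traps TGF-β, was at 77.1 to 103 and 13.1 to 33.5 (-1.89, SE 0.30, adjusted p = 0.00046). Bambi, a decoy receptor without a kinase, was at 3.30 to 3.87 and 0.673 to 1.88 (-1.35, SE 0.36, adjusted p = 0.0111).

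Of 16 Smads and intracellular regulators, 15 were tested, and 1 rose, 7 fell and 7 did not pass (median -0.56, 2 called, and 1 without CSA03). Of those tested 53.3% passed and 13.3% were called, beside 40.7% and 17.2% of all tested features. Smad6, an inhibitory Smad, was at 27.2 to 32.6 FPKM in CFA and 2.77 to 11.7 in CSA (log2 fold change -2.03, SE 0.46, adjusted p = 0.00438), with CSA03 lowest. Tgif1, a transcriptional repressor of Smad targets, was at 1.64 to 2.35 and 7.87 to 9.45 (1.98, SE 0.21, adjusted p = 3.22e-05). Smurf2, a ubiquitin ligase that acts on the receptors, was at 22.6 to 25.7 and 12.7 to 13.8 (-0.85, SE 0.10, adjusted p = 6.16e-05).

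Of 17 genes that TGF-β is known to induce, 16 were tested, and 6 rose, 7 fell and 3 did not pass (median 0.15, 6 called), or 81.2% passed and 37.5% called against 40.7% and 17.2% of all tested features. Cnn1 (-3.80, SE 0.26, adjusted p = 2.26e-06) and Acta2 (-2.86, SE 0.19, adjusted p = 1.54e-06), both contractile genes, fell, at 21.2 to 44.1 and 683 to 774 FPKM in CSA against 336 to 529 and 3881 to 6604 in CFA. Timp1, an inhibitor of metalloproteinases, was at 19.4 to 109.8 FPKM in CFA and 259.8 to 677 in CSA (3.47, SE 0.55, adjusted p = 0.000461). Acta2, Cnn1 and Tagln of this list, and Dcn among the modulators, are also in the SMC or fibroblast marker lists. In CSS against CFS and in CFA against CFS, 0 genes of these 5 lists had an adjusted p under 0.05.

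**Figure D4:**
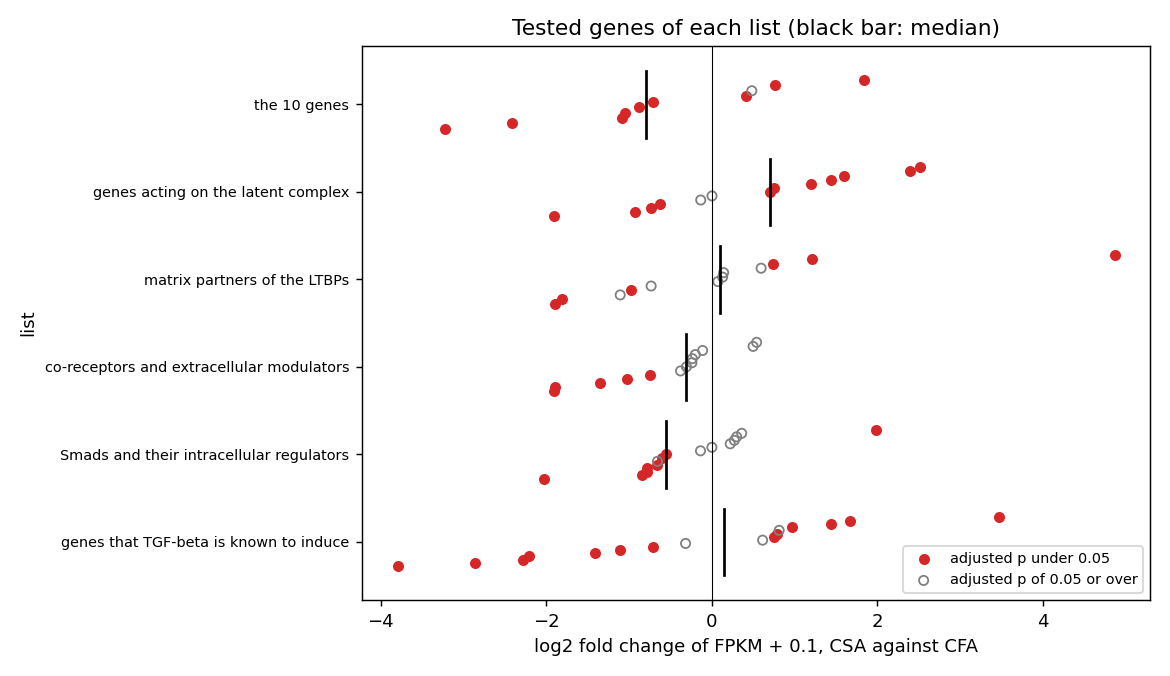
Log2 fold change of FPKM + 0.1 in CSA against CFA for each tested gene of the 10 and of the 5 pathway lists, filled where the adjusted p was under 0.05, with a black bar at each list's median. The 10 genes have a median of -0.80, and the medians of the other lists run from -0.56 to 0.70.

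The 10 genes were measured from 788 (Ltbp2) to 66679 (Ltbp4) fragments in a library, and none was at 0 in any library. On GRCm38 with the GENCODE M21 annotation all are protein-coding. Tgfb1 lies at chr7:25687002-25705077 (plus strand), Tgfb2 at chr1:186622792-186705989 (minus) and Tgfb3 at chr12:86056745-86079041 (minus). Tgfbr1 lies at chr4:47353222-47414931 (plus), Tgfbr2 at chr9:116084293-116175360 (minus) and Tgfbr3 at chr5:107106570-107289629 (minus). Ltbp1 lies at chr17:75005568-75392512 (plus), Ltbp2 at chr12:84783212-84876532 (minus), Ltbp3 at chr19:5740904-5758532 (plus) and Ltbp4 at chr7:27305136-27337692 (minus). Of the exonic bases of Tgfb3, 12.4% lie under antisense genes, and 9.34% of those of Ltbp2 under D030025P21Rik on the other strand. Tgfbr3 (4.54%), Tgfb2 (2.14%) and Ltbp3 (2.01%) share smaller parts with other genes, and the rest share none. The library protocol marks no strand, so reads from pairs on opposite strands cannot be told apart there. Tgfbr3 shares its part with Gm43422 on its own strand, where a marked strand would not separate them.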

How the data were processed

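RNA-Seq libraries of poly(A) RNA were read in pairs of 150 bases on a NovaSeq. The authors deposited FPKM, 1 value per gene and mouse, without pooling. The submitters' processing notes name HISAT2 2.0.5, StringTie 1.3.3b, featureCounts 1.5.0-p3 and mm10, without roles. The values carry a scaling between libraries that the sources used here do not describe, since the median log ratio is the same in all 12. Groups came from the sample labels, and 0 columns were left unused. Mice are separate animals, each with 1 library.

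Symbols and exon lengths came from GENCODE M21. With those lengths, 97.8% to 98.4% of values under 100 fragments came out within 0.02 of a whole number, and these fragments gave the depth. Where a gene is listed at 0, up to 3 fragments remain possible, for counting error only.

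log2(FPKM + 0.1) was fitted in R 4.3.3 with limma 3.58.1 (1 coefficient per group, eBayes with trend and robust settings) on features with at least 1 FPKM in at least 3 libraries, 14676 in all and 256 of them without an Ensembl identifier. Adjustment followed Benjamini and Hochberg, over all tested features of a comparison, and called means an adjusted p under 0.05 with an absolute log2 fold change over 1.5. DEG-Seq, which the study's methods name, was not run. Tests used the deposited FPKM, and the recovered fragments gave depth per library and per gene and entered no test. Scripts were tested on simulated data. Python 3.11.15, pandas 2.3.3, numpy 2.4.6, SciPy 1.17.1 and matplotlib 3.10.9 made tables, exact tests and figures.

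The 10 genes and all lists were chosen with earlier results of these data known. The text names the 10 genes, Ccn2, the 3 tested genes of each pathway list with the largest absolute change between CSA and CFA, and the 2 genes most like each called gene. Marker genes and Dcn and Tagln, which 2 lists share, are outside this rule, and the fibroblast markers were named after their values were seen. Besides SMC, macrophage, neutrophil, fibroblast and platelet, marker lists covered 9 further cell types: T cells (22.6 to 33.2 FPKM summed in CSA, at most 3.14 elsewhere), B cells (43.0 to 59.8, at most 20.6), endothelium (110 to 139, 108 to 425), lymph node stroma (3.27 to 11.7, at most 5.40), Schwann cells (13.8 to 18.1, at most 23.5), adipocytes (92.0 to 296, 153 to 2668), erythrocytes (63.2 to 621, 134 to 2496), skeletal muscle (at most 4.01, at most 244) and mesothelium (at most 0.484, at most 0.955). Alternatives were a pseudocount of 1, no filter, a mean of at least 5 FPKM, median-of-ratios scaling, scaling to the library sum, plain eBayes, array weights, no fold limit, limma's treat, only the groups compared, and leaving out each mouse.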

Additional observations from a re-analysis of the deposited data

Results flagged for a closer look

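The genotype effect under Ang II differed from that under saline for 5 of the 10 genes by limma's interaction term. The difference of log2 fold changes was -2.39 for Ltbp1, -3.44 for Ltbp4, -1.41 for Ltbp3, -0.92 for Tgfb3 and 0.55 for Tgfbr2. Each had an adjusted p under 0.05, as 26.4% of tested features did. For Ltbp1 and Ltbp4 the adjusted p stayed at or below 0.000232 and 0.00155 over 19 alternatives. For Ltbp3 it was 0.0519 with no filter on low values, Tgfb3 missed 0.05 in 8 alternatives (0.0504 to 0.0819) and Tgfbr2 in 4 (0.0523 to 0.0894). In the same comparison 8 of 8 SMC markers had a negative and 6 of 8 macrophage markers a positive interaction term at an adjusted p under 0.05, and their part in these differences was not tested.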

How the results depend on the processing

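Of 140 log2 fold changes of the 10 genes in CSA against CFA over 14 alternatives, 125 kept their direction and side of the threshold, 14 no longer had an adjusted p under 0.05, 1 newly had one and 0 reversed. The genes with an adjusted p under 0.05 numbered 9 in CSA against CFA, 4 when the fit held CSA and CFA alone (1 higher and 3 lower) and 7 to 9 with 1 mouse left out. Apart from no fold limit, no share of all tested features is given for the alternatives here. Their counts therefore have no background beside them. With no fold limit the genes called rose from 3 to 9 in CSA against CFA, from 3 to 8 in CSA against CSS and from 2 to 5 for the interaction. Without that limit 40.7%, 46.2% and 26.4% of tested features passed in the same order. Limma's treat called 2 genes, both lower, in each of these 3 tests, so Ltbp2 was no longer called in CSA against CFA or CSA against CSS. The share of all tested features that treat called is not given. Leaving out 1 mouse gave 2 to 3, 3 to 3 and 2 to 3 genes called in these, 0 to 0 in CSS against CFS and 0 to 1 in CFA against CFS. In CFA against CFS 1 gene, Ltbp2, was called in place of 0 with a mean of at least 5 FPKM, with scaling to the library sum, with array weights and without CFA74.

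Reversals were of values near 0. Ltbp1 in CSS against CFS went from -0.03 to 0.034 with scaling to the library sum, and ran from -0.071 to 0.059 with 1 mouse left out. With 1 mouse left out the interaction ran from -0.042 (without CSA01) to 0.39 for Tgfb1, from -0.082 (without CFA74) to 0.63 for Ltbp2, from -0.33 to 0.034 (without CFA74) for Tgfbr3 and from -0.19 to 0.14 (without CSS54) for Tgfbr1, which was positive in 5 such fits. The cause was not tested. The interaction of Tgfb2 passed with array weights (adjusted p = 0.00385) and without CSA03 (0.0263).

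The scalings tried moved the median of all features by at most 0.0777 on the log2 scale, and median-of-ratios scaling moved nothing, since the deposited values already have equal medians. With 3 mice per group, differences with an adjusted p over 0.05 are not shown to be absent. CSA03, the shallowest library, was left out only where its omission is stated. No paired analysis was possible because the groups share no replicate numbers.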
